A study of Rattus norvegicus with 9 samples.

Results

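The 8 genes described here mark the pericentral zone of the liver lobule, the hepatocytes that surround the central vein. They were chosen by symbol as known markers of this zone, Cyp2e1, Cyp1a2, Glul, Oat, Rhbg, Slc1a2, Lgr5 and Axin2, out of the 17156 genes listed for the series, with earlier results of these data known. All 8 were found in the count tables of the 9 livers. The livers came from male Sprague-Dawley rats in 3 groups of 3. Normal rats received neither carbon tetrachloride (CCl4) nor tormentic acid (TA), a plant triterpene. Model rats received CCl4 into the stomach, at 2 ml/kg of a 50% solution in oil 2 times a week for 9 weeks. TA rats received the same CCl4 and then TA at 3 mg/kg for 6 weeks. All rats were fasted for 12 h before the liver was taken, which the paper places at the end of the treatment. The dose of TA is given for the study and not in the label of each TA library. Each library held the RNA of whole liver, so that fewer cells of a type and less RNA per cell cannot be told apart.

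Hepatocytes divide their work along the path of the blood. Cells near the portal vein make urea and glucose, and cells near the central vein oxidise foreign compounds and capture ammonia that escaped upstream. The central pattern is maintained by Wnt proteins and R-spondin 3 released by endothelial cells of the central vein, which act through the receptors Frizzled, LRP and LGR and through beta-catenin. Cyp2e1 is the main enzyme that turns CCl4 into its toxic radical, and for this reason CCl4 injures pericentral hepatocytes first. Cyp1a2 is a cytochrome P450 that metabolises caffeine and aromatic amines and is induced through the aryl hydrocarbon receptor. Glul is glutamine synthetase, which fixes ammonia, and Oat is ornithine aminotransferase, which makes glutamate from ornithine. Rhbg carries ammonium and Slc1a2 (also called GLT-1) carries glutamate into the cell. Lgr5 is an R-spondin receptor, and Axin2 is a feedback inhibitor of the Wnt pathway. Lgr5 and Axin2 are themselves transcribed in answer to Wnt signals.

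Promoters of 7 of the 8 genes (9 promoters, all but that of Lgr5) were found in RefSeq for the rat build GRCr8, from 250 bases before the start site to 50 bases after it. They were searched on both strands for TCAAAG, a core that the Wnt effectors of the TCF/LEF family bind, and for GCGTG, the core bound by the aryl hydrocarbon receptor with ARNT. These motifs do not overlap in sequence. TCAAAG was found in the promoters of Cyp2e1, Cyp1a2 and Axin2, in 1 of 2 promoters of Glul and in 1 of 2 promoters of Slc1a2, and not in those of Oat and Rhbg. Of all 33469 rat promoters of the same length, 16.1% held it. GCGTG, which 29.7% of all promoters held, was found in 1 promoter of Slc1a2 alone among these genes. The 250 bases before the start site are shown for Cyp2e1, the gene that activates CCl4, for Cyp1a2, whose level was farthest below normal among the genes tested, and for Axin2, the feedback gene of the Wnt pathway, 5′ to 3′ on the strand of the gene with TCAAAG, here present as its reverse complement, in capitals. Cyp2e1 lies on the plus strand (chr1:205269717-205269966), Cyp1a2 on the minus strand (chr8:66978150-66978399) and Axin2 on the plus strand (chr10:94398535-94398784).
Cyp2e1: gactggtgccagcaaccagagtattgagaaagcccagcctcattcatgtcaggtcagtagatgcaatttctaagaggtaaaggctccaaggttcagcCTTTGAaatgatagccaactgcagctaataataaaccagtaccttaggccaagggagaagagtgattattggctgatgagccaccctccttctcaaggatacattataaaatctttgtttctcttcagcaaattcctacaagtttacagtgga
Cyp1a2: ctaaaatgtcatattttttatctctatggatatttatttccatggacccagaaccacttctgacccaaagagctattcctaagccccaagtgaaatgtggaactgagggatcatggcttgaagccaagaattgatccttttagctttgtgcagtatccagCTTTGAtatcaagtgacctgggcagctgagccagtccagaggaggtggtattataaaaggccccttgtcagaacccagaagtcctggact
Axin2: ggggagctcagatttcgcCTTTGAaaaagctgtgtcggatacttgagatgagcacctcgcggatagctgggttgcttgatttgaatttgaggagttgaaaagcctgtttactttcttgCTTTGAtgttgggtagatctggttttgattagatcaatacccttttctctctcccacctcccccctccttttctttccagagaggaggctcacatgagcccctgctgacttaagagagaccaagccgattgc
The first capital base lies 153 bases before the start site in Cyp2e1, 90 bases before it in Cyp1a2, and 232 and 132 bases before it in Axin2. The matches are a description of these letters, and binding was not measured.

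In the normal livers, compared per length as FPKM (the deposited fragments per kilobase, corrected for the size of the library), Cyp2e1 was at 1488 ± 310 (SD, n = 3) and ranked 47th of 16730 genes. Cyp1a2 followed at 405 ± 79.4, then Oat at 173 ± 4.24 and Glul at 161 ± 42.1, whose ranges overlapped. The transporters and the Wnt genes were much lower. Slc1a2 was at 13.0 ± 6.22, Rhbg at 3.57 ± 0.483 and Axin2 at 2.90 ± 0.761, and the ranges of Rhbg and Axin2 overlapped. Lgr5 was lowest, at 0.257 ± 0.137. The length behind the FPKM of Slc1a2 is 882 bases, against 2141 to 3989 bases for Rhbg, Lgr5 and Axin2. In the model livers the order of the group means was Cyp2e1, Glul, Cyp1a2, Oat, Axin2, Slc1a2, Rhbg and Lgr5, and Cyp2e1, at 1206 ± 816, still ranked 48th. The ranges of Glul, Cyp1a2 and Oat overlapped there, as did those of Axin2, Slc1a2 and Rhbg. Glul was at 333 in the first model rat and at 84.1 and 96.3 in the others, and Cyp1a2 was at 32.4, 69.7 and 219. In the TA livers the order was the same as in the normal livers.

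The libraries held between 13156735 and 18090405 counts. The first model rat stood apart from the other livers. Its TMM factor (the correction edgeR makes for libraries whose reads are spread over different genes) was 1.69, against 0.816 to 1.16 in the other 8. The summed level of 12 hepatocyte markers was 43947 CPM (read counts relative to the library's total, with the TMM factor applied) in it, 123974 and 141033 in the other model rats and 167413 to 204081 in the normal rats. Its 7 myofibroblast markers summed to 12392 CPM and its 6 cholangiocyte markers to 2000 CPM, against 1106 and 1372, and 116 and 193, in the other model rats, and no marker of these lists was at 0 there. Its 8 macrophage markers summed to 1941 CPM, against 275 and 378 in the other model rats, its 7 endothelial markers to 468, against 206 and 228, and its 7 lymphocyte markers to 174, against 78.6 and 94.3. Spp1 made 1849 CPM of its cholangiocyte sum, against 45.2 and 26.7 CPM in the other model rats. Krt7, Krt19 and Sox9 were also highest in this rat, while Epcam (77.6, against 96.4 and 54.0) and Cftr (11.5, against 23.0 and 13.1) were not. Gpnmb made 1136 CPM of its macrophage sum, and Clec4f and Marco were lowest in this rat among the model livers. This rat was the lowest of the model group for 6 of the 8 genes and the highest for Glul. The part that these cell types had in the results below was not tested, and values without this rat are given beside those that it moves.

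Against the normal livers, the model livers had less Cyp1a2, Oat, Slc1a2 and Lgr5 in each of 3 rats, while Cyp2e1, Glul, Rhbg and Axin2 overlapped between the groups. This holds for CPM after TMM normalization. In FPKM, which carry no TMM factor, Slc1a2 overlapped and Axin2 was higher in each of 3 model rats. The counts were compared gene by gene with edgeR's quasi-likelihood test over all 12730 genes that passed its filter on low counts, with p-values adjusted by the Benjamini-Hochberg method. Of the 7 pericentral genes that passed the filter (Lgr5 did not), 0 had an adjusted p under 0.05, where 7.87% of all genes did and 1.01% did so in the lower direction. At an unadjusted p under 0.05 there were 2, Cyp1a2 and Slc1a2, and both also passed the study's thresholds, which ask in addition for a log2 fold change beyond 1. Of all genes, 5.55% passed these thresholds in the lower direction. DESeq2, which also tested Lgr5, called 2 of the 8 at an adjusted p under 0.05, where it called 16.1% of all genes. Limma voom with sample quality weights called 4 of 7, where it called 27% of all genes. Counted by liver, 3 of the 7 tested genes had groups without overlap, all lower in the model, where 17.3% of all genes tested were lower without overlap.

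**Figure D1:**
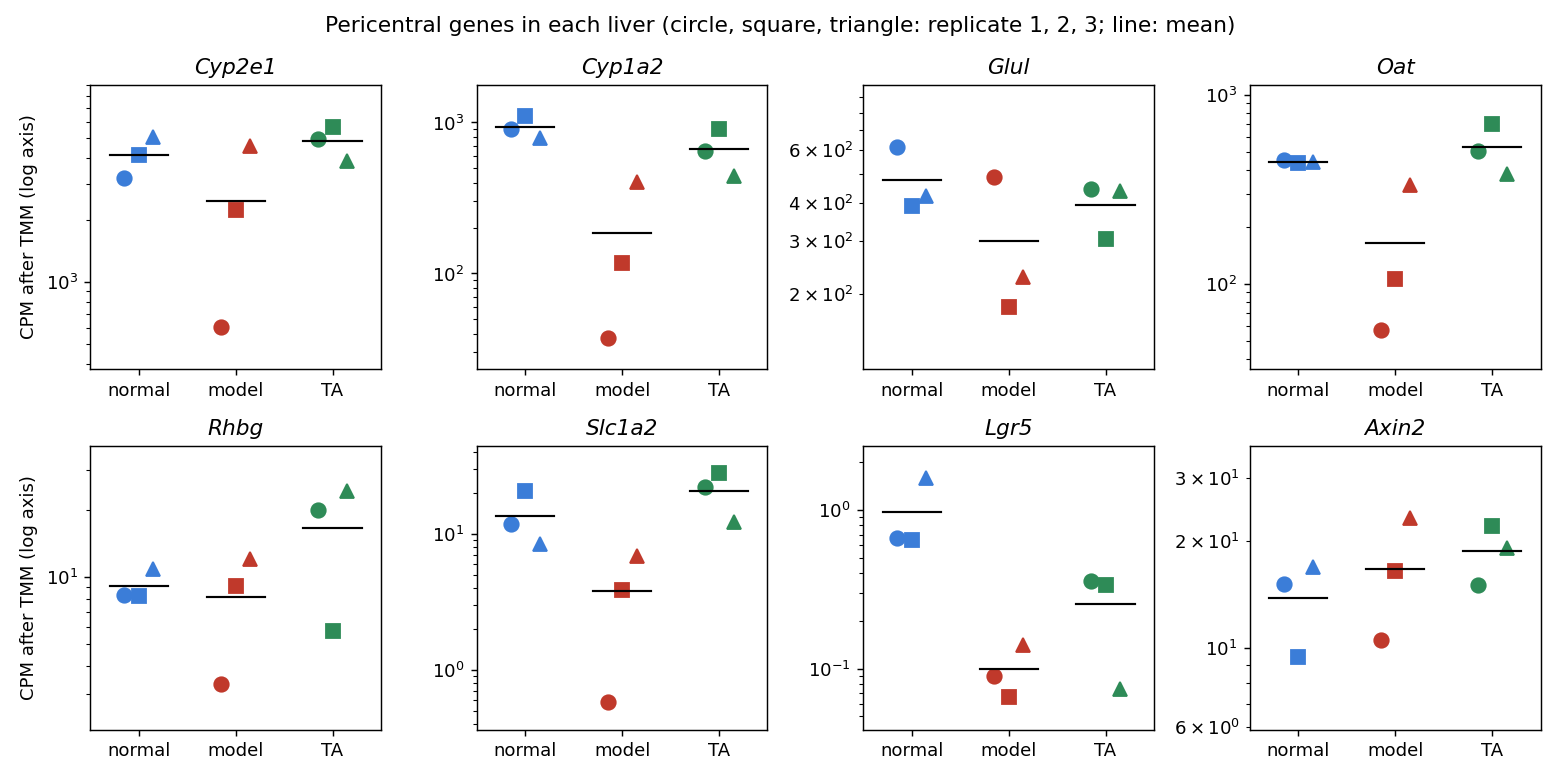
Level of each of the 8 pericentral genes in each of the 9 livers, in CPM after TMM normalization on a log axis, with replicates as symbols and the group mean as a line. Cyp1a2 in the model livers lies between 37.3 and 405 CPM, below all normal livers (789 to 1108 CPM), and the first model rat (circle) is the lowest of its group for Cyp2e1, Cyp1a2, Oat, Rhbg, Slc1a2 and Axin2.

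Cyp2e1 was at 3212, 4120 and 5087 CPM (after TMM normalization) in the normal livers, at 605, 2248 and 4571 CPM in the model livers and at 4942, 5661 and 3857 CPM in the TA livers. The third model rat was within the normal range and the first was far below it, so that the model group spread 7.55-fold from lowest to highest, against 1.58-fold in the normal group. The log2 fold change of the model against the normal livers was -0.74 (SE 0.76), with an adjusted p of 0.548 in edgeR's quasi-likelihood test. Without the first model rat it was -0.30 (SE 0.41).

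Cyp1a2, the other P450 among the pericentral genes chosen, was at 911, 1108 and 789 CPM in the normal livers. It was at 37.3, 117 and 405 CPM in the model livers and at 645, 908 and 443 CPM in the TA livers. In CPM all model livers were below all normal and all TA livers. The model level was 5.01-fold lower than normal on a log2 scale of -2.32 (SE 0.79), with an unadjusted p of 0.0190 and an adjusted p of 0.105 in edgeR's quasi-likelihood test. The adjusted p was 0.00767 in DESeq2, 0.00692 in limma voom with sample quality weights and 0.0717 in edgeR without the first model rat. Without the third model rat, whose level was nearest to normal, the log2 fold change was -3.62 (SE 0.64) with an adjusted p of 0.0123 in edgeR. Over all alternatives the adjusted p ran from 0.00692 to 0.242.

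Glul, the ammonia-fixing enzyme of the last rim of cells around the central vein, was at 618, 391 and 422 CPM in the normal livers, at 489, 181 and 227 CPM in the model livers and at 445, 305 and 439 CPM in the TA livers. The second model rat and the third were below all normal livers, and the first, which had the lowest hepatocyte markers, was within the normal range. The log2 fold change was -0.67 (SE 0.46), with an adjusted p of 0.369 in edgeR's quasi-likelihood test. Without the first model rat it was -1.24 (SE 0.30), with an adjusted p of 0.0511, and over all alternatives the adjusted p ran from 0.0120 to 0.915.

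Oat was nearly level in the normal livers, at 449, 435 and 443 CPM, and was at 56.8, 106 and 333 CPM in the model livers and at 503, 703 and 380 CPM in the TA livers. The groups of model and normal rats did not overlap. The log2 fold change of the model against the normal livers was -1.42 (SE 0.62), a level 2.67-fold lower, with an unadjusted p of 0.0502 and an adjusted p of 0.174 in edgeR's quasi-likelihood test. Without the third model rat it was -2.46 (SE 0.43), with an adjusted p of 0.0120, and without the first it was -1.03 (SE 0.45), with an adjusted p of 0.203. Over all alternatives the adjusted p ran from 0.0120 to 0.411.

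The transporters of ammonium and glutamate differed from each other. Rhbg was at 8.30, 8.24 and 10.8 CPM in the normal livers, at 3.32, 9.08 and 12.0 CPM in the model livers and at 19.9, 5.75 and 24.2 CPM in the TA livers. In CPM the groups overlapped in every comparison, and the log2 fold change of the model against the normal livers was -0.17 (SE 0.46, adjusted p 0.834 in edgeR's quasi-likelihood test). It was 0.19 (SE 0.28) without the first model rat. Slc1a2 was at 11.9, 20.5 and 8.48 CPM in the normal livers, at 0.583, 3.88 and 6.86 CPM in the model livers and at 22.1, 27.7 and 12.2 CPM in the TA livers. In CPM its model livers lay below all others, with counts from 13 to 97 per library. In FPKM the third model rat (8.18) lay above the third normal rat (7.84). The log2 fold change was -1.86 (SE 0.75), a level 3.64-fold lower, with an unadjusted p of 0.0378 and an adjusted p of 0.147 in edgeR's quasi-likelihood test. Without the first model rat it was -1.37 (SE 0.46), with an adjusted p of 0.114.

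Lgr5, the R-spondin receptor, gave few counts. It had 8, 10 and 19 counts in the normal livers, 2, 1 and 2 in the model livers and 5, 4 and 1 in the TA livers. All model and all TA livers were below all normal livers. Summed over the group, the model livers had 5 counts against 37 in the normal livers, a ratio of 0.103 after TMM normalization, with an exact 95% interval from 0.0317 to 0.264 that covers counting error only. With no filter on low counts, edgeR's quasi-likelihood test gave it a log2 fold change of -3.21 (SE 0.89) and an adjusted p of 0.0573, and DESeq2 gave -3.32 and an adjusted p of 0.0128.

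Axin2, which like Lgr5 is read as a Wnt target gene, was at 15.1, 9.46 and 17.0 CPM in the normal livers, at 10.5, 16.5 and 23.1 CPM in the model livers and at 15.0, 22.0 and 19.1 CPM in the TA livers. In CPM the groups overlapped in all 3 comparisons. In FPKM Axin2 of the model (4.47 to 6.10) and TA livers (3.74 to 4.95) lay above all normal livers (2.04 to 3.47). Its log2 fold change of the model against the normal livers was 0.27 (SE 0.36), with an adjusted p of 0.636 in edgeR's quasi-likelihood test. On the scale of each library's total, with the median of all genes at 0.65, the log2 fold change of Axin2 was 0.82 (SE 0.33). Its unadjusted p was 0.0354 and its adjusted p 0.108 there in edgeR's quasi-likelihood test. With TMM, leaving out the first model rat gave 0.50, and leaving out the third gave -0.05.

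Among single genes an exact permutation test of 3 rats against 3 can give no two-sided p below 0.1. Cyp1a2, Oat, Slc1a2 and Lgr5 reached this p in the model against the normal livers, and the other 4 genes gave 0.3 (Cyp2e1 and Glul), 0.6 (Axin2) and 0.9 (Rhbg).

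Against the model livers, the TA livers had more Cyp1a2, Oat and Slc1a2 without overlap of the groups in CPM after TMM normalization. In FPKM the third TA rat lay below the third model rat for Cyp1a2 (209 against 219) and Oat (162 against 163). The log2 fold changes of all 7 tested genes were above 0. Of these genes, 0 of 7 had an adjusted p under 0.05 in edgeR's quasi-likelihood test, where 0% of all 12781 genes tested did, although 1999 genes had an unadjusted p under 0.05. Oat and Slc1a2 had an unadjusted p under 0.05 and passed the study's thresholds, which 2.11% of all genes passed in the higher direction. DESeq2 and limma voom with sample quality weights each called 1 of these genes, Slc1a2, where they called 3.08% and 1.32% of all genes. Groups without overlap were found for 3 of 7 genes, all higher in the TA livers, where 10.5% of all genes were higher without overlap. The same 3 model rats served in this comparison and in that of the model against the normal livers, so the 2 sets of fold changes are not independent.

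The log2 fold change of the TA against the model livers was largest for Slc1a2, at 2.47 (SE 0.75), a level 5.55-fold higher, with an unadjusted p of 0.0111 and an adjusted p of 0.258 in edgeR's quasi-likelihood test. The adjusted p of Slc1a2 was 0.0270 in DESeq2 and 0.0462 in limma voom with sample quality weights, within a range from 0.0270 to 0.567 over all alternatives, and the fold change on the log2 scale was 1.95 (SE 0.44) when the first model rat was left out. Cyp1a2 differed by 1.84 (SE 0.80), 3.58-fold, with an adjusted p of 0.323, and by 1.36 without that rat. Oat differed by 1.68 (SE 0.66), 3.21-fold, with an adjusted p of 0.296, and by 1.28 without that rat. Rhbg at 1.04 (SE 0.61), Cyp2e1 at 0.97 (SE 0.78), Glul at 0.41 (SE 0.46) and Axin2 at 0.17 (SE 0.33) overlapped between the groups. Their adjusted p ran from 0.419 for Rhbg to 0.817 for Axin2 in edgeR. Without the first model rat Rhbg was at 0.67, Cyp2e1 at 0.51 and Axin2 at -0.07, and Glul was at 0.97 (SE 0.31), with an adjusted p of 0.416 in edgeR. Lgr5 had 10 counts in the TA livers against 5 in the model livers, a ratio of 2.63 with an exact 95% interval from 0.819 to 9.80 that covers counting error only. Without the first model rat, 3 genes passed the study's thresholds in this comparison and 3 in that of the model against the normal livers. Of all genes, 6.13% and 16% did so in either direction.

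Between the TA and the normal livers all 7 tested genes overlapped in CPM after TMM normalization, where 15.1% of all genes tested did not. The log2 fold changes of the 7 ran from -0.52 (SE 0.29) for Cyp1a2 to 0.83 (SE 0.46) for Rhbg. Of these, 0 of 7 had an adjusted p under 0.05 in edgeR's quasi-likelihood test, as 0.263% of 12179 genes did, and 0 of 7 had an unadjusted p under 0.05 or passed the study's thresholds, which 5.25% of all genes passed. DESeq2 and limma voom called none of them either, where they called 2.07% and 1.03% of all genes. With the replicate number as a block, 1.67% of all genes were called and again 0 of these 7. In that fit 2 of the 7 had an unadjusted p under 0.05, Cyp1a2 at -0.57 (SE 0.17, p 0.0143, adjusted p 0.154 in edgeR) and Slc1a2 at 0.59 (SE 0.17, p 0.0098, adjusted p 0.131 in edgeR). Cyp1a2 was lower and Slc1a2 higher in the TA rat than in the normal rat of the same number for each of the 3 numbers. This match by number was taken from these same data and not from the labels, and neither gene was called. Cyp2e1 differed by 0.19 (SE 0.26), Oat by 0.23 (SE 0.25), Glul by -0.30 (SE 0.25), Axin2 by 0.41 (SE 0.27) and Slc1a2 by 0.57 (SE 0.40). Lgr5, which did not pass the filter, did not overlap between these groups. Its 10 counts in the TA livers against 37 in the normal livers gave a ratio of 0.272. The exact 95% interval of this ratio, from 0.121 to 0.557, covers counting error only and not the spread between rats. Its adjusted p was 0.513 in edgeR with no filter on low counts and 0.421 in DESeq2.

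**Figure D2:**
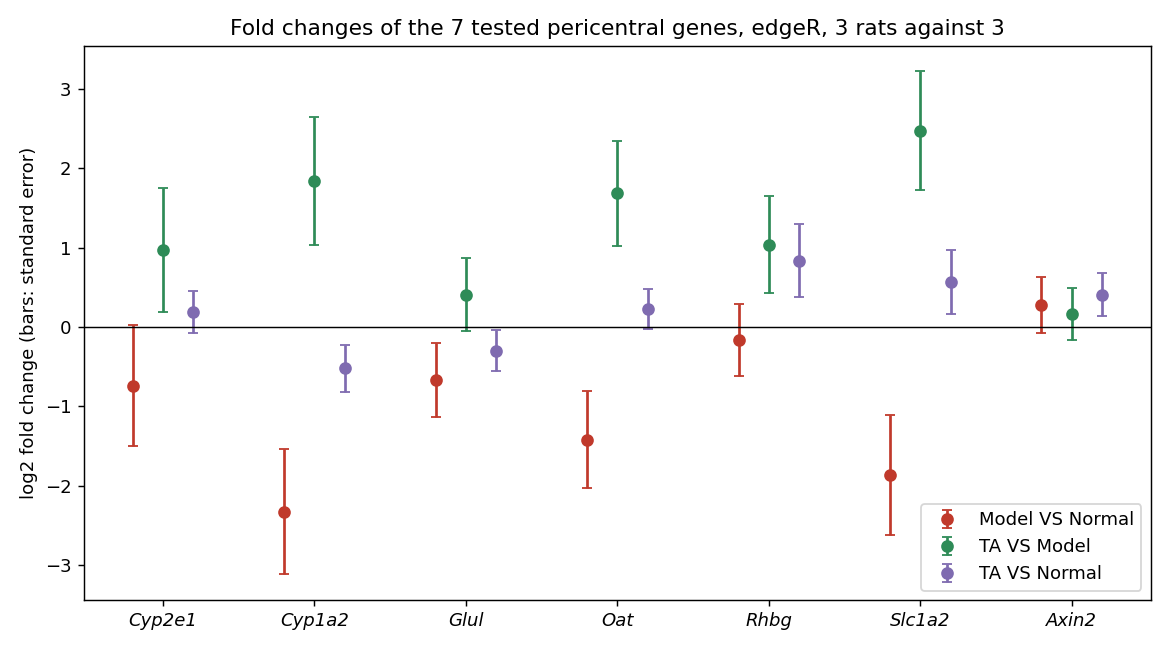
log2 fold change of the 7 tested pericentral genes in the 3 comparisons, with the standard error of the edgeR fit as bars (3 rats against 3). Cyp1a2, Oat and Slc1a2 are farthest below 0 in Model VS Normal (-2.32, -1.42 and -1.86) and farthest above 0 in TA VS Model, which share the model rats, and all TA VS Normal values lie between -0.52 and 0.83.

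The livers also differed in the level of genes that mark hepatocytes in general. The 12 hepatocyte markers had a median log2 fold change of -1.07 in the model against the normal livers (-0.69 without the first model rat), 0 of 12 were called by adjusted p in edgeR's quasi-likelihood test with 0 at an unadjusted p under 0.05, and 8 of 12 were lower in the model without overlap. When the libraries were scaled by these markers instead of by TMM, the median of all genes moved to 1.44, and the pericentral genes lay on both sides of 0. Cyp1a2 stayed lower in the model, at -1.57 (SE 0.55), with an adjusted p of 0.0426 in edgeR's quasi-likelihood test. Slc1a2 was at -1.09 (SE 0.79) and Oat at -0.53 (SE 0.54). Cyp2e1 was at 0.06 (SE 0.40), and Rhbg at 0.82 (SE 0.73), Glul at 1.12 (SE 0.67) and Axin2 at 1.43 (SE 0.71) were above 0. None of these genes lay above the median of all genes. Their adjusted p ran from 0.119 for Axin2 to 0.899 for Cyp2e1 in edgeR's quasi-likelihood test. The value of Glul rests on the first model rat, in which Glul stood 2.40 above the normal mean relative to the markers on the log2 scale, while the lower of the other model rats stood at -0.60. In the model livers Rhbg stood 0.776 to 0.888 above the normal mean on this scale, a narrow range, and Axin2 stood 1.06 to 1.98 above it. Oat of the third model rat (0.044) lay within its normal range (-0.092 to 0.116). Slc1a2 of that rat (-0.435) lay above the lowest normal liver (-0.470).

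**Figure D3:**
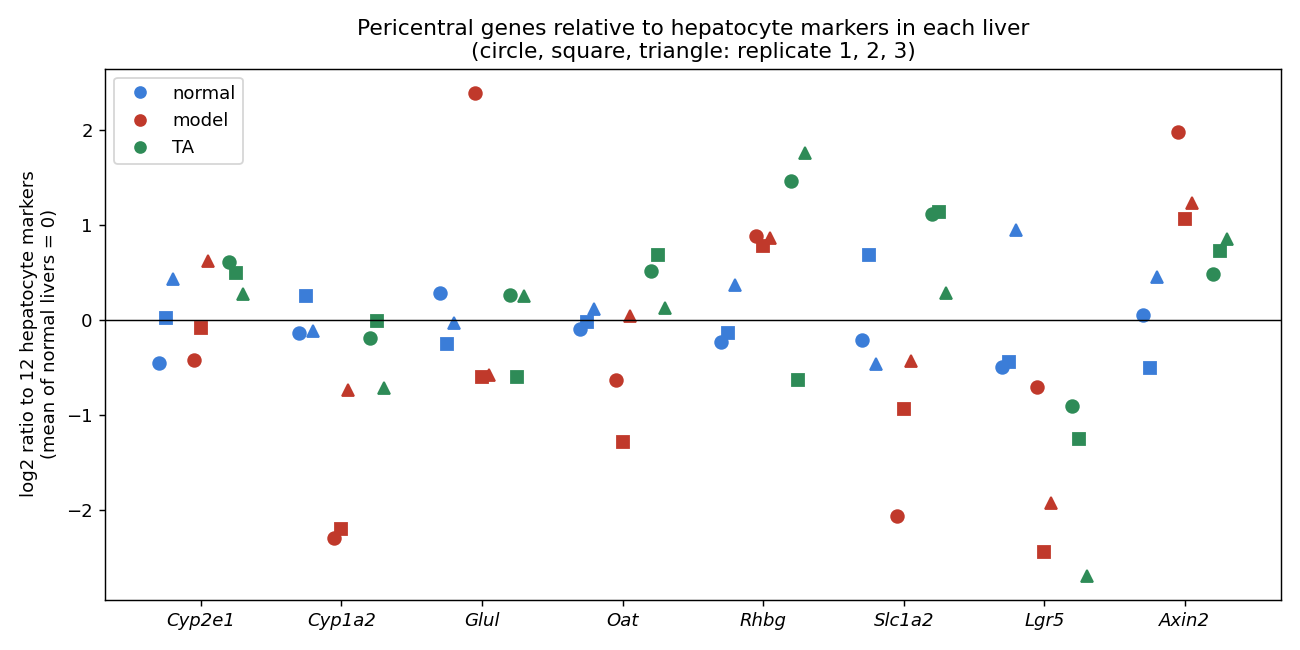
log2 ratio of each pericentral gene to the 12 hepatocyte markers in each liver, set to 0 at the mean of the normal livers. Cyp1a2 lies below 0 in all 3 model livers (-2.30 to -0.74), Axin2 lies above all normal livers in all 3 (1.06 to 1.98), and Glul of the first model rat (circle) stands at 2.40.

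For the TA against the model livers the same scaling moved the median of all genes to -1.19. Slc1a2 was then at 1.90, Cyp1a2 at 1.28, Oat at 0.98, Cyp2e1 at 0.36 and Rhbg at 0.34, while Glul at -1.11 and Axin2 at -0.79 were below 0. Scaling by library totals alone gave values between these and those of TMM, with the median of all genes at 0.65 for the model against the normal livers and at -0.48 for the TA against the model livers. Across these scalings and without the first model rat, Cyp1a2, Oat and Slc1a2 kept their direction in both comparisons. Axin2 stayed above 0 in the model against the normal livers (0.27 to 1.43), where the signs of Cyp2e1, Glul and Rhbg did not hold. Cyp2e1 (0.36 to 0.97) and Rhbg (0.34 to 1.04) stayed above 0 in the TA against the model livers. The signs of Glul and Axin2 did not hold there. A change of scaling also moves the median of all genes. Relative to the median of all genes, Cyp2e1 was below it in the model against the normal livers in each of these fits (-1.38 to -0.26) and so was Glul (-1.21 to -0.32), while Rhbg ran from -0.62 to 0.23 and Axin2 from -0.01 to 0.54. Cyp2e1 (0.48 to 1.55), Glul (0.08 to 0.93) and Rhbg (0.63 to 1.53) were above the median in each fit of the TA against the model livers, and Axin2 ran from -0.10 to 0.40.

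**Figure D4:**
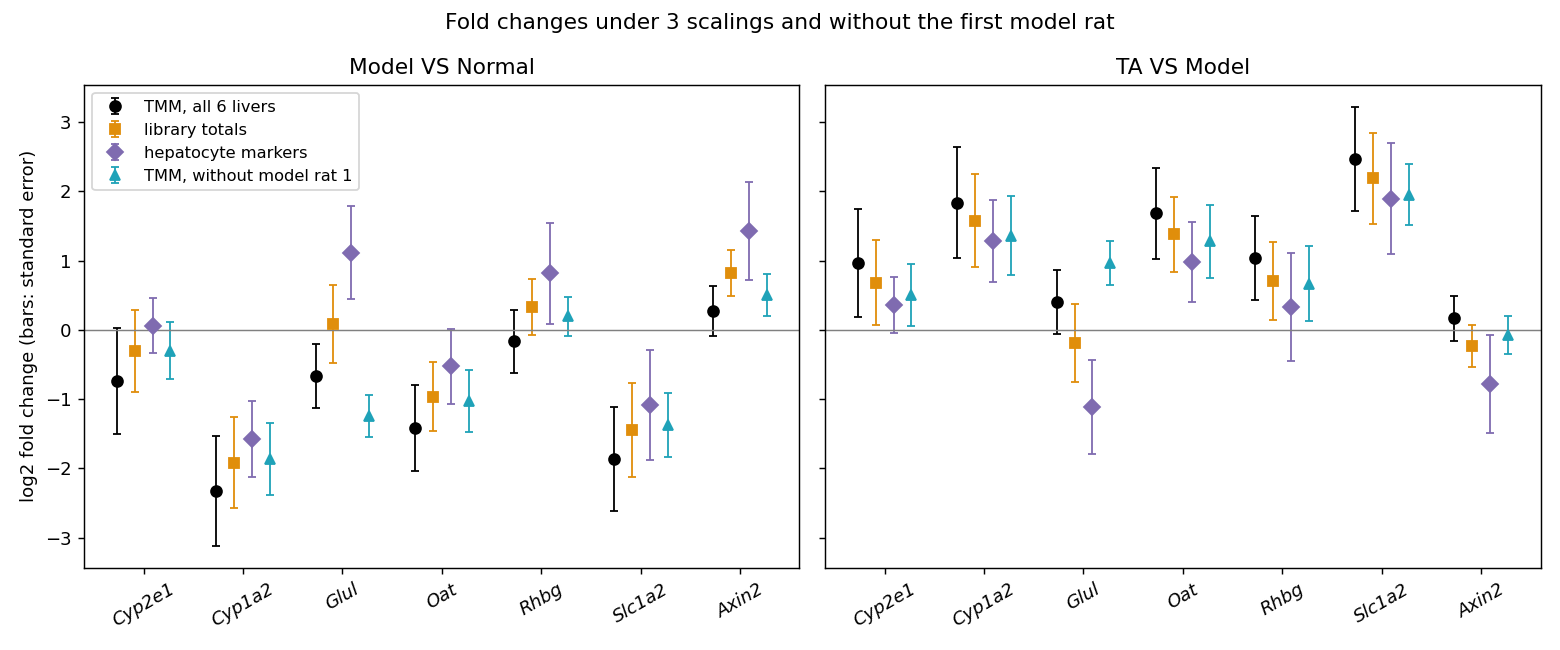
log2 fold changes with standard errors of the 7 tested genes under TMM, library totals, scaling by hepatocyte markers, and TMM without the first model rat. In Model VS Normal, Cyp1a2 runs from -2.32 to -1.57 and stays below 0, whereas Glul runs from -1.24 to 1.12 and Rhbg from -0.17 to 0.82, with the median of all genes at 1.44 under the scaling by hepatocyte markers.

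The members moved together to different degrees over the 9 livers, which fall into 3 groups and differ in the level of the hepatocyte markers. Pearson's r of the log2 CPM was 0.968 between Cyp1a2 and Oat, 0.944 between Oat and Slc1a2, 0.930 between Cyp1a2 and Slc1a2 and 0.901 between Cyp2e1 and Cyp1a2. Glul did not follow them, with an r from -0.141 with Cyp2e1 to 0.208 with Cyp1a2 among these genes. Among 7958 genes compared, the levels of Ppm1k (r 0.991), Chuk (0.985), Bckdha (0.977) and Ube4a (0.974) were most like Cyp2e1. Thrb (r 0.995), LOC691083 (0.993), Cyp2d1 (0.992) and Cyp3a18 (0.991) were most like Cyp1a2. Cyp2d1 and Cyp3a18 have close relatives with which reads may be shared. The genes most like Glul were Tmem101 (r 0.900), Fcna (0.895), Atp6v0b (0.893) and Tmem63a (0.893), and those most like Axin2 were Ubr7 (0.907), Clcc1 (0.895), Scaf8 (0.889) and Ptprk (0.863). These values describe 9 livers of 3 groups and carry no test.

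Other genes known from the pericentral zone mostly had negative fold changes in the model. Of 20 listed, 19 were tested, with a median log2 fold change of -1.15 against 0.02 over all genes, and 18 of 19 were below 0. Leaving out the first model rat gave a median of -0.79, with 17 of 19 below 0. Slc13a3, a carrier of dicarboxylates, was the only one called by adjusted p (-1.62, SE 0.38, adjusted p 0.0433 in edgeR's quasi-likelihood test), and it missed the threshold without the first model rat (adjusted p 0.0582) and when scaled by hepatocyte markers (-0.43, adjusted p 0.577). At the study's thresholds 5 were lower, among them Slc13a3, Rnase4 (-1.69), Avpr1a, the vasopressin receptor (-1.44), and Aqp9, a channel for glycerol (-1.10). In the TA against the model livers 19 of 19 were above 0, with a median of 0.96, 0 of 19 were called by adjusted p in edgeR with 2 at an unadjusted p under 0.05, and Slc13a3 (1.72) was among those past the study's thresholds. The median was 0.53, with 16 of 19 above 0, when the first model rat was left out.

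Genes of the periportal zone, at the other end of the lobule, mostly had negative fold changes as well. Of 18 tested, 15 were below 0 in the model against the normal livers, with a median of -1.33 (-0.89 without the first model rat). Hal, which breaks down histidine, fell by 2.56 (SE 0.60, adjusted p 0.0426) and Cyp2f4 fell by 2.44 (SE 0.53, adjusted p 0.0364) in edgeR's quasi-likelihood test, and Cyp2f4 missed the threshold when scaled by hepatocyte markers (-1.51, adjusted p 0.0740). Hal was at 377, 374 and 374 CPM in the normal livers, at 17.0, 74.1 and 99.7 CPM in the model livers and at 129, 243 and 301 CPM in the TA livers, so that all groups were separate. The medians of the pericentral genes, the 7 members included (-0.74), were not compared by a test with that of the periportal genes. Scaled by hepatocyte markers the medians were 0.06 for the members, -0.27 for the other pericentral genes and -0.44 for the periportal genes, where all genes had 1.44.

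The genes that carry the Wnt signal are given by role, and the roles were not compared by a test. Of all genes tested, 6.86% were called higher by adjusted p in the model against the normal livers. Of 7 tested ligands and R-spondins, 3 rose in this comparison, Wnt5a by 4.50 (SE 0.59, adjusted p 0.0116), Rspo1 by 3.31 (SE 0.71, adjusted p 0.0347) and Wnt4 by 3.03 (SE 0.56, adjusted p 0.0242) in edgeR's quasi-likelihood test, and Rspo1 missed the threshold without the first model rat (adjusted p 0.0517). Wnt5a was at 0.0644 to 0.252 CPM in the normal livers, at 2.97 to 4.40 in the model livers and at 1.42 to 1.49 in the TA livers, and these groups were separate. The normal livers held 1 to 3 counts of Wnt5a, 3 to 10 of Rspo1 and 40 to 76 of Wnt4. The ligands known from the central vein endothelium were not called. Wnt2 had a log2 fold change of 0.20, Wnt9b one of 0.90 and Rspo3 one of -0.71 (SE 0.40, adjusted p 0.273), which was 0.50 when scaled by hepatocyte markers. Rspo3 was at 7.39, 5.99 and 6.04 CPM in the normal livers, at 2.83, 2.96 and 6.08 in the model livers and at 7.05, 6.68 and 7.83 in the TA livers. Its TA and model groups did not overlap, at a log2 fold change of 0.87 (SE 0.39, adjusted p 0.331).

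Of 9 tested receptors, Fzd6 rose (2.19, SE 0.46, adjusted p 0.0337 in edgeR's quasi-likelihood test), and Lgr4, which like Lgr5 binds R-spondins, was at -0.42 (adjusted p 0.404). Of 13 tested inhibitors, 5 rose in the model, Sfrp1 by 5.88, Dkk3 by 3.48, Frzb by 3.06, Dkk2 by 2.81 and Nkd1 by 1.95, with adjusted p from 0.0116 for Sfrp1 and Dkk3 to 0.0268 for Dkk2. Their counts in the normal livers were low, at 1 to 18 for Sfrp1, 16 to 34 for Dkk3, 11 to 49 for Frzb, 9 to 19 for Dkk2 and 38 to 64 for Nkd1. Notum, a secreted Wnt deacylase that is itself a Wnt target gene, went the other way, at 146 to 187 CPM in the normal livers, 25.7 to 97.1 in the model livers and 95.3 to 182 in the TA livers. Its log2 fold change was -1.64 (SE 0.48, adjusted p 0.0733) in the model against the normal livers and 1.34 (SE 0.51, adjusted p 0.286) in the TA against the model livers. Of 14 transducers and targets, 0 were called by adjusted p in edgeR and 4 had an unadjusted p under 0.05. Tcf7l2, the main TCF of hepatocytes, was at -0.82 (SE 0.32, adjusted p 0.142) without overlap. In the TA against the model livers 0 genes of these lists were called by adjusted p, and 3 ligands, 1 receptor and 5 inhibitors were lower past the study's thresholds, which 10.2% of all genes passed in the lower direction. These were 2 ligands, 1 receptor and 2 inhibitors without the first model rat. The 7 tested myofibroblast markers moved in the same direction as Wnt5a, Sfrp1 and Dkk3, with medians of 4.16 in the model against the normal livers and -2.25 in the TA against the model livers, and their part in these values was not tested. These medians were 2.44 and -0.74 when the first model rat was left out, and the number of these markers lower past the study's thresholds in the TA against the model livers went from 7 to 0.

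**Figure D5:**
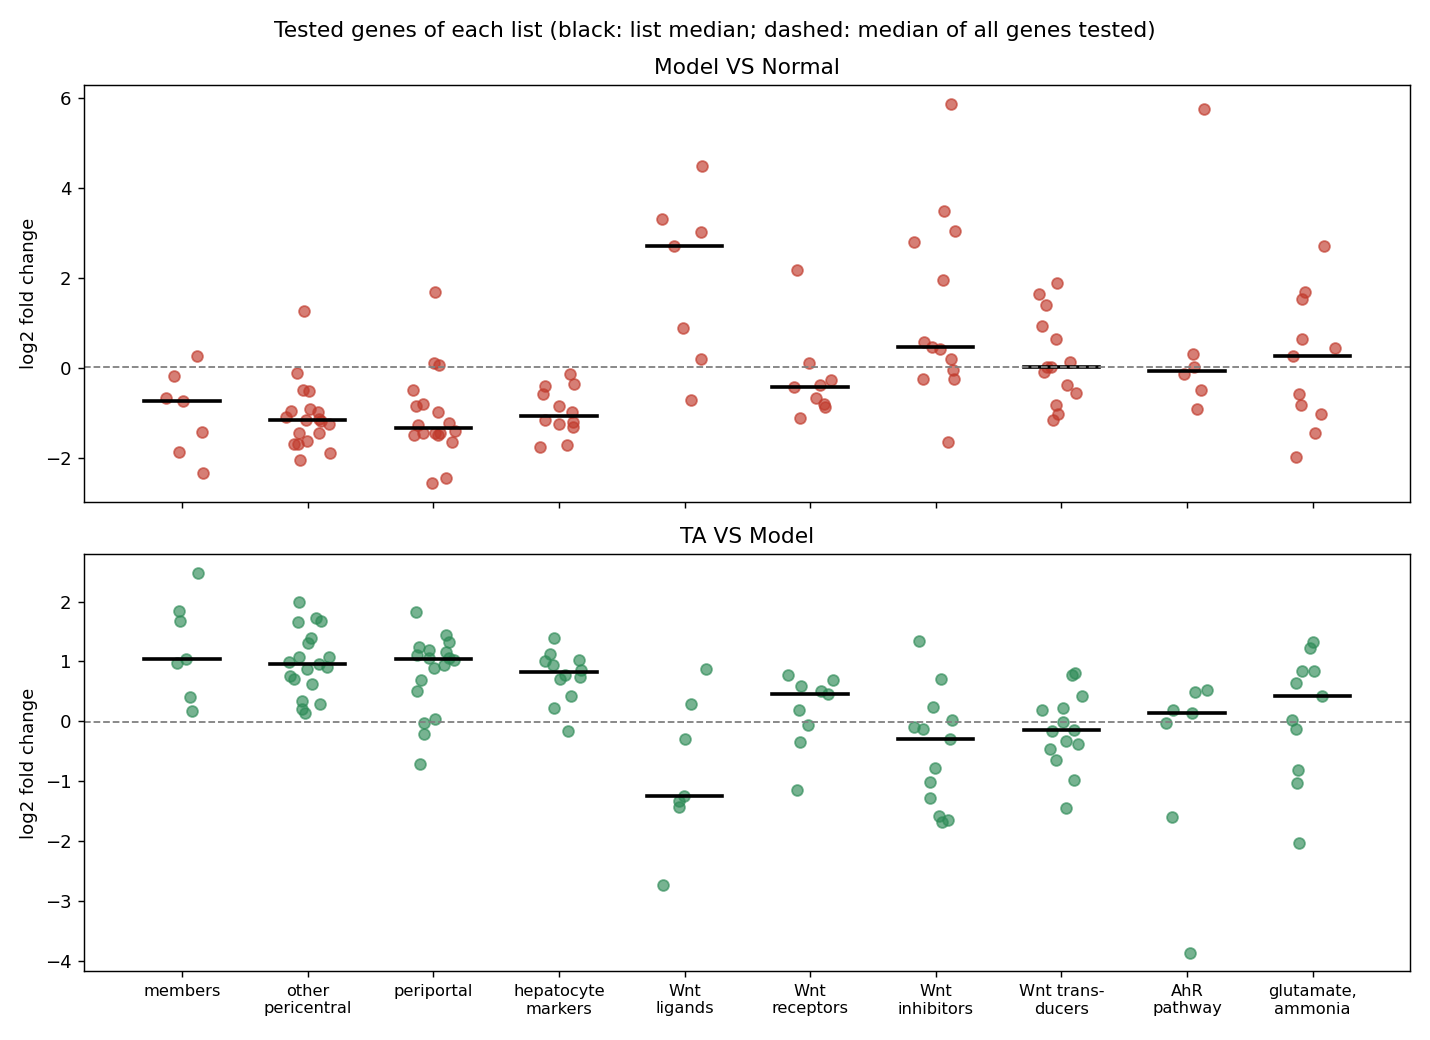
log2 fold changes of the tested genes of each list, with the list median (black) beside the median of all genes tested (dashed). In Model VS Normal the members (-0.74), the other pericentral genes (-1.15), the periportal genes (-1.33) and the hepatocyte markers (-1.07) lie below 0 and the Wnt ligands (2.72) above it, and in TA VS Model the same lists lie on the other side of 0.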

How the data were processed

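Liver RNA of 9 rats (3 normal, 3 model, 3 TA) was sequenced by the authors after selection of polyadenylated RNA. Per the paper's methods, reads were trimmed with Trimmomatic and Cutadapt, mapped with STAR and counted on genes with HTSeq-count, and whether the counting used strand is not given in the sources used here. The methods name a human genome, the submitters' processing notes name mm9, and the gene symbols are those of the rat, so no coordinates were taken from the tables. The authors deposited raw counts per gene in a pair of tables (16938 and 16948 genes, 16730 in both), in which the model counts are the same. The authors also deposited a signal, the counts divided by a DESeq2 size factor, which was not needed here, and FPKM values, which were used for levels per length. Their own log2 fold changes and p-values were not used.

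Counts were tested in R 4.3.3 with edgeR 4.0.16 (quasi-likelihood test, TMM normalization, default filter on low counts, Benjamini-Hochberg adjustment, only the libraries of the groups compared). CPM were scaled over all 9 livers, with a prior count of 2 in log2 values. The SE of a log2 fold change is its size over the root of F. The alternatives were DESeq2 1.42.0, limma 3.58.1 voom with sample quality weights, the newer form of the quasi-likelihood fit, other scalings and filters, 1 fit over all 9 libraries, a block for the replicate number, and fits that each left out 1 library. The script was tested on simulated data.

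The 8 genes, the other lists and the tests were chosen with earlier results of these data known. All 8 were named. From each other list, apart from items that are not reported here and the markers of other cell types, which are given as sums and medians, the genes past the adjusted threshold were named or, where fewer than 4 passed it, those past the study's thresholds without overlap, up to 4 per comparison, besides defining genes of the list, and for like patterns the 4 genes with the highest Pearson r where the mean log2 CPM reached 3. Aqp9, Nkd1 and the genes of the lists that passed neither rule were named after their values were seen, to complete a count or to give a defining gene. The rats are separate animals. Same-numbered rats of the TA and normal groups deviated together from their group means (r 0.345, 0.496 and 0.607), so the number was taken to pair them, from the data and not from the labels. Of the list genes, Axin1, Dkk1, Znrf3, Aldh18a1, Aldh4a1, Prodh, Col1a2, Pecam1, Ctrb1, Pnlip, Prss1, Lep and Plin1 were not analysed here.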

Additional observations from a re-analysis of the deposited data

How the results depend on the processing

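Depth limits Lgr5 most, with 1 to 19 counts per liver. In the model against the normal livers, 2 of the pericentral genes were called with DESeq2, 4 with limma voom with sample quality weights and 1 when scaled by hepatocyte markers, against 0 in the fit reported, and 0 to 2 with each library left out. The 2 called without the third model rat were Cyp1a2 and Oat. Of all genes, 16.1% were called with DESeq2, 27% with voom and 24.8% when scaled by hepatocyte markers. The share was 7.87% in the fit reported and 0% to 19.3% with each library left out. The number past the study's thresholds was 4 with DESeq2, with voom and with no filter on low counts, 1 with library totals and with hepatocyte markers, and 0 to 3 with each library left out (0 without the second model rat, 1 without the first or the second normal rat). Of all genes, 21.4% passed them with DESeq2, 23.1% with voom and 20.5% with no filter. The share was 31.1% with library totals, 45.2% with hepatocyte markers and 16% to 29.8% with each library left out. In the TA against the model livers, 1 gene was called with DESeq2 and with voom and 0 with each library left out, 4 passed the study's thresholds with voom, and 1 to 3 did with each library left out (1 without the second model rat and without the first or the third TA rat). Of all genes, 3.08% were called with DESeq2 and 1.32% with voom. The study's thresholds were passed by 13.4% with voom and by 6.13% to 21.2% with each library left out. In the TA against the normal livers 1 gene, Lgr5, passed the study's thresholds with DESeq2 and with no filter, and 0 to 1 did with each library left out (1, Rhbg, without the second TA rat). Of all genes, 5.27% passed with DESeq2, 5.5% with no filter and 4.25% to 7.39% with each library left out. Some log2 fold changes changed sign. In the model against the normal livers, Rhbg was at 0.070 with voom, 0.33 with library totals, 0.82 with hepatocyte markers and from -0.58 to 0.19 with each library left out, Glul at 0.088 with library totals and 1.12 with hepatocyte markers, Cyp2e1 at 0.061 with hepatocyte markers, and Axin2 from -0.050 to 0.50 with each library left out. In the TA against the model livers, Glul was at -0.19 and -1.11 and Axin2 at -0.23 and -0.79 with library totals and hepatocyte markers, and Axin2 ran from -0.069 to 0.49 with each library left out. In the TA against the normal livers, Glul was at 0.0066 with hepatocyte markers and Oat ran from -0.039 to 0.42 with each library left out. The cause of these changes was not tested. With the replicate number as a block, 0 pericentral genes were called in each comparison, and 3, 3 and 0 passed the study's thresholds in the model against the normal, the TA against the model and the TA against the normal livers. Of all genes, 9.55%, 0% and 1.67% were called in these fits, and 23%, 13.4% and 5.99% passed the study's thresholds. The block changed no call by adjusted p of the pericentral genes. In the comparisons with the model group the same-numbered rats correlated at a mean r of 0.0475 and 0.0578, and not every sample correlated best with its own. The first model rat gave an r of 0.245 with the first normal rat and 0.204 with the first TA rat. These values do not settle whether the number pairs the model rats with others, and the labels give no pairing. Of all log2 fold changes recomputed, 311 kept direction and call, 10 passed the adjusted threshold only under the alternative and 15 changed sign.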

Other observations

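Genes that make or carry the substrates of Glul, Oat, Rhbg and Slc1a2 did not share one direction. Of 11 tested genes of glutamate, proline and ammonia handling, 6 had fold changes above 0 and 5 below 0 in the model against the normal livers, and 2 rose by adjusted p in edgeR's quasi-likelihood test. One of them, Slc1a5, a glutamine carrier, rose by 2.72 (SE 0.64, adjusted p 0.0433), and it also passed without the first model rat (1.62, adjusted p 0.0403). It was at 1.68 to 2.49 CPM in the normal livers, at 6.08 to 27.3 in the model livers and at 2.39 to 4.49 in the TA livers, so that the model livers lay above all others. Slc1a4, a carrier of neutral amino acids, was at 1.53 (SE 0.43, adjusted p 0.0667), with model livers above all normal livers.

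Of the 6 tested genes of the aryl hydrocarbon receptor pathway, which induces Cyp1a2, Cyp1b1 rose in the model against the normal livers, by 5.76 (SE 1.33, adjusted p 0.0418 in edgeR's quasi-likelihood test), and it missed the threshold without the first model rat (4.03, adjusted p 0.0551). Cyp1b1 had 9, 1 and 0 counts in the normal livers. The receptor Ahr was at 111, 104 and 112 CPM in the normal livers, at 35.5, 55.5 and 81.5 in the model livers and at 79.7, 52.1 and 56.8 in the TA livers, so that the model and TA livers lay below all normal livers. Its log2 fold change was -0.92 (SE 0.33, adjusted p 0.114) in the model and -0.82 (SE 0.21, adjusted p 0.196) in the TA livers against the normal livers, and 0.13 (SE 0.35, adjusted p 0.866) between the TA and the model livers. Nqo1, a quinone reductase, was at 14.8 to 20.7 CPM in the normal livers, 15.3 to 26.9 in the model livers and 5.34 to 8.65 in the TA livers, with a log2 fold change of -1.59 (SE 0.33, adjusted p 0.230) against the model and -1.32 (SE 0.27, adjusted p 0.113) against the normal livers. Aldh1a1, a pericentral retinal dehydrogenase, was at 52.3 to 88.5 CPM in the normal livers and at 96.9 to 332 in the TA livers, with a log2 fold change of 1.44 (SE 0.48, adjusted p 0.350), and was at 1.27 (SE 0.56, adjusted p 0.179) in the model against the normal livers.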
